A study of Mus musculus with 473 samples.

Results

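The E15.MB.1 cells are 68 single neurons from the midbrain of embryonic day 15.5 (E15.5) mice. They were chosen by the submitters' own cluster label, which splits the 88 E15.5 midbrain cells that passed quality control into 68 E15.MB.1 cells and 20 E15.MB.2 cells. The series holds 473 cells in all. The embryos came from hemizygous Th:EGFP males of the line Tg(Th-EGFP)DJ76Gsat/Mmnc and wild-type Swiss Webster females. In that line regulatory sequence of Th (tyrosine hydroxylase) on a bacterial artificial chromosome drives enhanced green fluorescent protein (EGFP), so cells were sorted by the product of that transgene. All E15.5 groups used here carry that transgene and had no treatment. Tissue of 4 EGFP-positive embryos was pooled per region, dissociated with papain and sorted for green fluorescence, with propidium iodide to leave out dead cells. The 60 E15.FB.1 cells, from the forebrain (hypothalamus) of the same age, serve as a further point of reference. Because each region was 1 pool of embryos and the clusters were made from these same genes, no comparison here has a test, and a standard deviation (SD) is the spread between cells.

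Levels are FPKM, fragment values scaled for transcript length and library size, which can be compared between genes because of the length term. A gene is called found in a cell at an FPKM of 1 or more, and a share of cells carries its exact (Clopper-Pearson) 95% interval, which covers counting error only. The labels name every sorted cell a dopaminergic neuron. The expression of E15.MB.1 goes against that name, as the values below show, so the cells are called by their cluster or by the factors found in them.

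LIM-homeodomain proteins such as Lhx9 and Lhx2, the paired-box protein Pax5 and the even-skipped homologues Evx1 and Evx2 are transcription factors of the developing nervous system. Pax5 is known for its early expression at the boundary of midbrain and hindbrain, and Lhx9 for neurons of the dorsal midbrain and diencephalon. Slc17a6 encodes the vesicular glutamate transporter VGLUT2, and Gad1 and Gad2 encode the enzymes that make the inhibitory transmitter GABA.

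The regulatory sequence before the start of the 3 factors that give the cluster its character is shown because these genes were found together or apart in the cells described below. Each run is the stretch from 250 to 51 bases before the RefSeq transcript start (build GRCm38.p6), read 5′ to 3′ on the gene's strand, and all 3 genes were matched by symbol. Capitals mark the homeodomain core TAATT or its reverse complement AATTA, searched on both strands.
Lhx9, chr1:138842495-138842694, minus strand: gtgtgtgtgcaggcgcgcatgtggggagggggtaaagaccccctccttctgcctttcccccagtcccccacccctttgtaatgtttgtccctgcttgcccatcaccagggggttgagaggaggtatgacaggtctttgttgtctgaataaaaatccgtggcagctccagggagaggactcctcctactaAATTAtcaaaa
Evx1, chr6:52313248-52313447, plus strand: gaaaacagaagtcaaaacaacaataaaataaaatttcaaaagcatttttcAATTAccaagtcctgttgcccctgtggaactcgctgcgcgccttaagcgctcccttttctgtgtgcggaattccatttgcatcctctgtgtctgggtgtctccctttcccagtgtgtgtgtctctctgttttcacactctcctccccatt
Pax5, chr4:44710745-44710944, minus strand: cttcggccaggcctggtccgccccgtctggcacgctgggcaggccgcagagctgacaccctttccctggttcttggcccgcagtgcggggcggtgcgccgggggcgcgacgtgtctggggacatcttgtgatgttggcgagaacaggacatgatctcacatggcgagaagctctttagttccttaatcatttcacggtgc
The Lhx9 and Evx1 windows held 1 match each, and the Pax5 window held none of these letters. Of 32851 RefSeq windows of the same 200 bases, 7285 (22.2%) held the core, so a match there is a description and not a binding site. The Lhx9 window lies in an intron of the longer Lhx9 transcripts of GENCODE M21. The Evx1 window runs into an exon of Evx1os, the antisense gene at chr6:52308389-52314832, which shares 1335 bases with Evx1.

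The 68 cells were spread over both E15.5 library plates, 32 on TH01_14.15 and 36 on TH01_15.14, which differ in their dates of reverse transcription and library preparation. The number of genes per cell given in the labels ran from 3989 to 8600 with a median of 6398.5, against a median of 5891 in E15.MB.2 and 5859.5 in E15.FB.1. The FPKM of a cell summed to between 324840 and 2896204, so the scale of a value differed by up to 8.92 times between cells. Read depth per cell is unknown, since the table holds no counts. Of 408 values of 6 genes that every cell uses, 3 (0.735%) were at 0, so a gene at 0 is described only as listed at 0 in that cell. No pair of the cells in the 3 clusters had identical values, and the plates shared none of their 94 index pairs each.

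Lhx9 (ENSMUSG00000019230.14, chr1:138825186-138848577) ran from 0 to 727 FPKM in E15.MB.1, with a median of 94.5 and a mean of 145 ± 167 (SD, n = 68 cells). It was found in 46 of 68 cells (67.7%, interval 55.2 to 78.5%), in 1 of 20 E15.MB.2 cells and in 4 of 60 E15.FB.1 cells. The E15.MB.2 cell with Lhx9 stood at 10.2 FPKM, below the median of 189 over the 46 cells. Pax5 (ENSMUSG00000014030.15, chr4:44524757-44710487) ran from 0 to 890 FPKM with a median of 54.1 and a mean of 182 ± 261. It was found in 37 cells (54.4%, 41.9 to 66.6%), in 1 E15.MB.2 cell at 20.9 FPKM and in 2 E15.FB.1 cells. Evx1 (ENSMUSG00000005503.8, chr6:52313498-52318378) ran from 0 to 591 FPKM with a median of 1.45, and was found in 34 cells (50%, 37.6 to 62.4%). It was listed at 0 in all 20 E15.MB.2 cells and found in 1 E15.FB.1 cell. Slc17a6 was the most widespread of the 4 markers, found in 55 cells (80.9%, 69.5 to 89.4%) with a median of 82.0 and a highest value of 1002 FPKM. It was also found in 11 of 20 E15.MB.2 cells, at a mean of 61.6 ± 86.0 against 137 ± 169, and in 15 of 60 E15.FB.1 cells.

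Most but not all of the cells held these factors. Of the 68 cells, 56 had at least 1 of Lhx9, Pax5 and Evx1, and 23 had all 3 with Slc17a6. None of the E15.MB.2 cells had more than 2 of those 4 markers, and 1 of 60 E15.FB.1 cells had all 4. Each marker was found in a larger share of cells on plate TH01_15.14: Lhx9 in 77.8% against 56.2%, Pax5 in 58.3% against 50%, Evx1 in 58.3% against 40.6% and Slc17a6 in 83.3% against 78.1%.

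**Figure D1:**
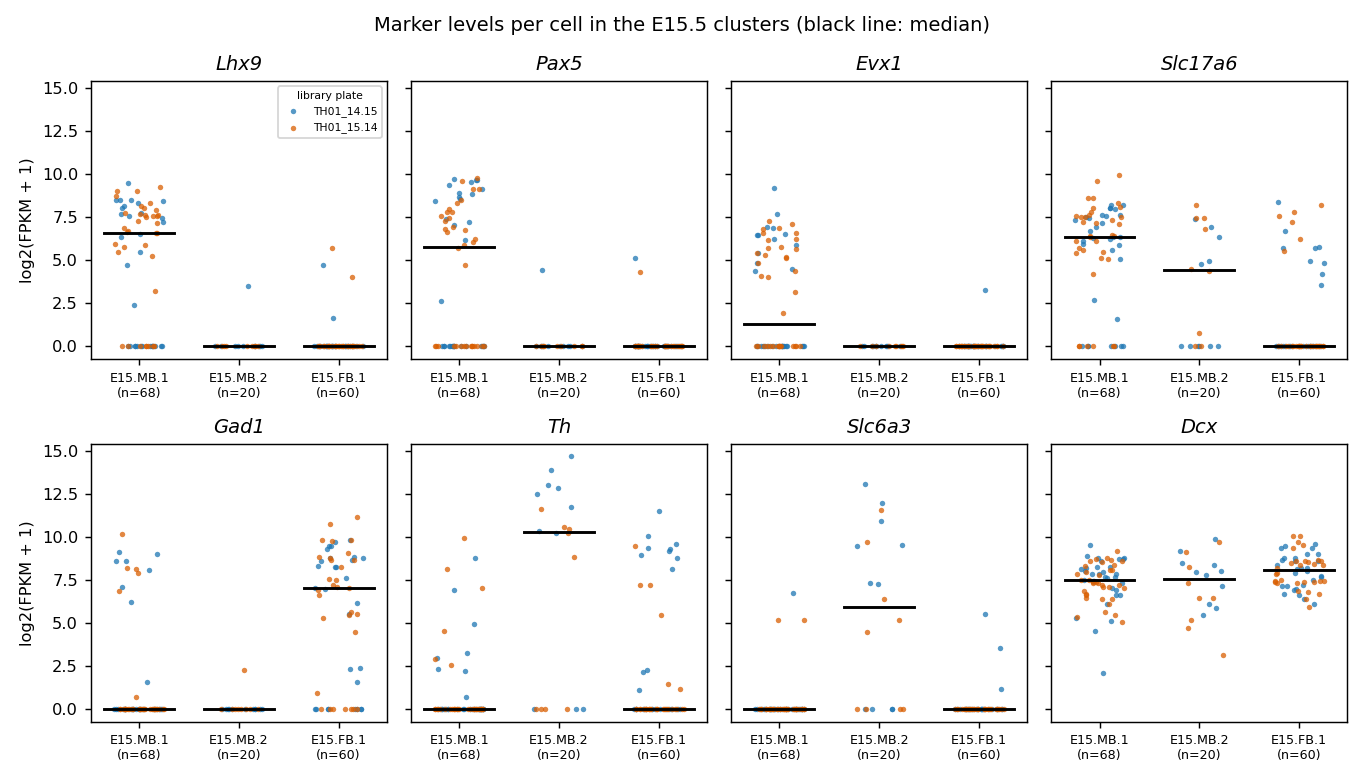
Level of 8 genes in each cell of E15.MB.1 (68 cells), E15.MB.2 (20) and E15.FB.1 (60), as log2(FPKM + 1), coloured by library plate, with the median as a black line. Lhx9, Pax5 and Evx1 are high in many E15.MB.1 cells and almost absent elsewhere, Th and Slc6a3 are high in E15.MB.2, Gad1 is widespread in E15.FB.1, and Dcx is high in all 3 clusters.

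Combinations of the 3 factors were unequal. The largest set held Lhx9, Pax5 and Evx1 together and counted 24 cells (35.3%, 24.1 to 47.8%). Lhx9 with Evx1 and without Pax5 was seen in 8 cells, Lhx9 with Pax5 and without Evx1 in 3, and Lhx9 as the only one of the 3 in 11. Pax5 was the only one in 8 cells, Pax5 with Evx1 occurred in 2, and 12 cells had none. No cell had Evx1 as the only factor: 32 of the 34 cells with Evx1 also had Lhx9, and the other 2 had Pax5. A factor not found in a cell may have been missed there, so each of these counts can shift by cells near the limit of detection.

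**Figure D2:**
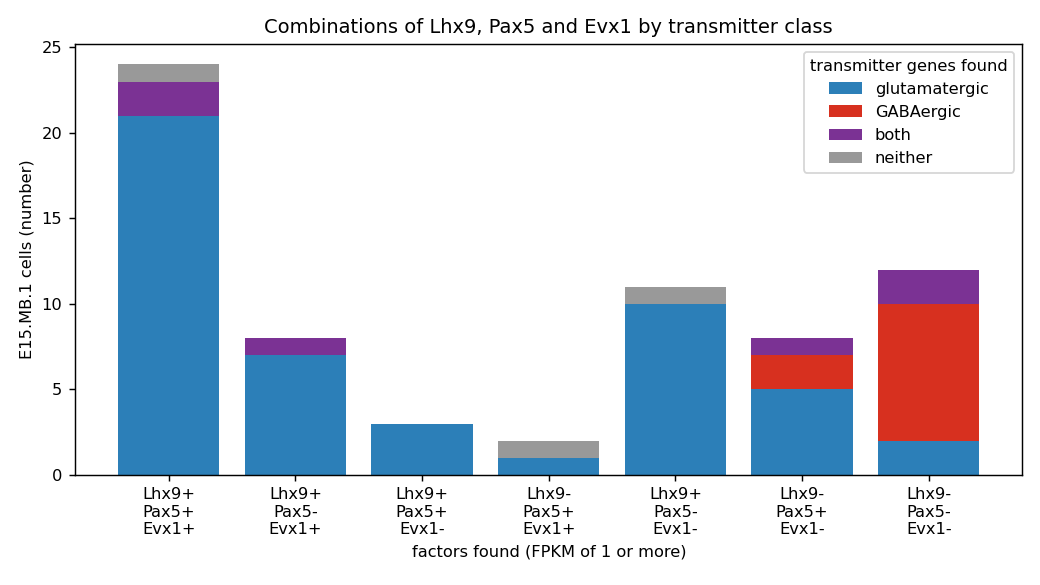
Number of E15.MB.1 cells with each combination of Lhx9, Pax5 and Evx1, coloured by the transmitter genes found. The 24 cells with all 3 factors hold no GABAergic cell, and 8 of the 10 GABAergic cells fall among the 12 cells with none of the factors.

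By transmitter genes, 49 cells (72.1%, 59.9 to 82.3%) were glutamatergic, with Slc17a6 found and both Gad genes not found. Slc17a7 and Slc17a8, the other vesicular glutamate transporters, were listed at 0 in all 68 cells. GABAergic cells, with Gad1 or Gad2 and no vesicular glutamate transporter, counted 10 (14.7%, 7.28 to 25.4%). A further 6 cells had both kinds of gene and 3 had neither. All 6 cells with both were on plate TH01_14.15. In 4 of them the Gad level was low, between 1.06 and 5.11 FPKM, and the other 2 held Gad1 at 74.2 and 274 FPKM. Slc17a6 stood at 33.1 FPKM in the first of these 2, and at only 1.98 in the cell with Gad1 at 274. The glutamatergic share was 59.4% on TH01_14.15 and 83.3% on TH01_15.14 and the share with both was 18.8% and 0. The part of the plates in these shares was not tested.

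Lhx9 was found in 41 of the 49 glutamatergic cells and in none of the 10 GABAergic cells. Pax5 was less clear-cut, with 2 of the 10 GABAergic cells holding it. Over the 68 cells, the Spearman correlation of Lhx9 with Slc17a6 was 0.48 and that with Gad2 was -0.55. These cells share 2 plates and a common pool, and the members of each pair share the cell's overall depth.

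**Figure D3:**
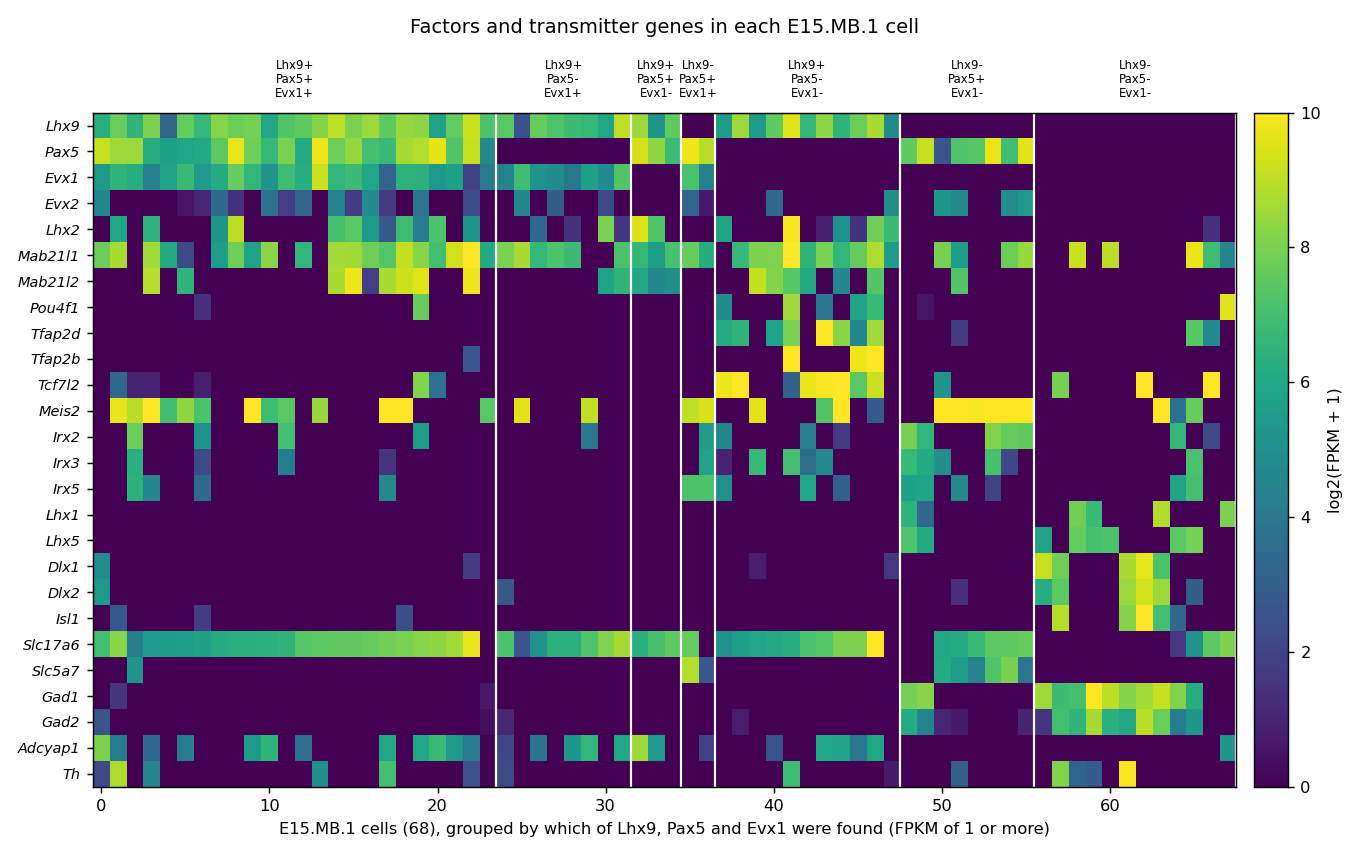
Level of 26 factors and transmitter genes (rows) in each of the 68 E15.MB.1 cells (columns), as log2(FPKM + 1) with colours capped at 10, grouped by which of Lhx9, Pax5 and Evx1 were found and then by transmitter class and Slc17a6. Tfap2d and Tcf7l2 gather in cells with Lhx9 as the only factor, Slc5a7 with Meis2 in cells with Pax5 and without Lhx9, and Lhx5, Dlx1, Dlx2 and the Gad genes in the cells to the right.

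Levels of the 3 factors varied widely among the cells that held all of them. Lhx9 ran from 8.16 to 610 FPKM with a median of 204 in the 24 cells, Pax5 from 25.8 to 850 with a median of 220, and Evx1 from 2.91 to 591 with a median of 72. Slc17a6 was found in 23 of them. Evx2, the paralogue of Evx1, was found in 13 of the 24 and in 23 of all 68 cells, with a highest level of only 41.9 FPKM. Cacng3, which encodes an auxiliary subunit of AMPA-type glutamate receptors, was found in 20 of the 24 at a median of 161 FPKM. It was found in 35 of all 68 cells, and also in 12 of 20 E15.MB.2 cells. Adcyap1, the gene for the neuropeptide PACAP, was found in 12 of the 24 and in 26 of all 68 cells. These choices of gene follow the factors that define the set, so the levels are a description.

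Evx1 and Evx2 lie next to the distal ends of the HoxA and HoxD clusters, with gaps of 52617 bases to Hoxa13 and 8752 bases to Hoxd13. None of Hoxa13, Hoxa11, Hoxd13 and Hoxd12 was found in any of the 68 cells, nor were the 13 hindbrain Hox genes listed for the check, which give position along the hindbrain and spinal cord. With 0 of 68 cells, the upper limit of the exact interval is 5.28%. Evx1os was found in 30 cells, 27 of them with Evx1. Reads of Evx1 and Evx1os cannot be told apart where the genes overlap, because no strand-specific counting is stated.

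The sets that follow were chosen after the values were seen. A second set is marked by Tfap2d, Tcf7l2, Pou4f1 and Tfap2b, with at least 2 of these factors in 9 cells, 4 on TH01_14.15 and 5 on TH01_15.14. Tfap2d and Tfap2b are AP-2 factors, Pou4f1 is the POU factor Brn3a, and Tcf7l2 is a nuclear partner of β-catenin in Wnt signalling. Lhx9 was found in 8 of the 9 cells and Slc17a6 in all 9, whereas Pax5 or Evx1 was found in 1. Tcf7l2 ran from 7.55 to 4040 FPKM with a median of 861, and Tfap2d from 0 to 1124 with a median of 89.7. Tfap2b was found in only 3 of the 9, and reached 4857 FPKM in the highest. Among genes found in 10 to 80% of all 68 cells, the level of Shox2, a homeobox gene, followed Tfap2d most closely, with a Spearman correlation of 0.61 (0.45 and 0.70 on the plates). Shox2 was found in 6 of 11 Tfap2d cells and in 2 of the other 57. Fzd1, a Wnt receptor, was found in 10 of 11 against 14 of 57, and Zfp521 in 11 of 11 against 22 of 57. Slc5a7, Dlx1, Lhx5 and Gad1 were listed at 0 in all 9 cells of the set.

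Another set carried Slc5a7, the choline transporter that supplies acetylcholine synthesis, in 9 cells. Pax5 was found in all 9, from 5.26 to 890 FPKM, and Lhx9 in 1. Meis2, a homeodomain partner factor of the TALE class, was found in all 9, from 492 to 2903 FPKM with a median of 1081, and in 21 of the other 59 cells. At least 1 of the Iroquois factors Irx2, Irx3 and Irx5 was found in 8 of 9. Among the 10 cells with Pax5 and without Lhx9, 8 had Slc5a7. Slc17a6 was found in 8 of the 9 cells at a median of 105 FPKM, so nearly all of them also had the glutamate transporter.

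The other cholinergic genes did not follow Slc5a7 closely. Slc18a3, the vesicular acetylcholine transporter, was found in 10 of 68 cells, but only 2 of those held Slc5a7. Chat, the enzyme that makes acetylcholine, was found in 2 cells, at 80.4 and 3.97 FPKM. A single cell had all 3 cholinergic genes, with Slc5a7 at 36.1, Slc18a3 at 341 and Chat at 80.4 FPKM. Syndig1, a regulator of AMPA receptors at synapses, followed Slc5a7 most closely, with a Spearman correlation of 0.60 and values from 110 to 508 FPKM in the 9 cells. It was found in 13 of the other 59. Among these were 4 of the 5 GABAergic cells without a Dlx gene, at up to 966 FPKM. C1ql4, a secreted C1q-like protein of synapses, was found in 8 of 9 at a median of 776 FPKM, against 15 of 59.

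The 10 GABAergic cells fell into 2 sets of 5 by Dlx genes. Dlx1, Dlx2 and Dlx5, homeobox factors known from forebrain GABAergic neurons, were all found in 5 cells, 3 on TH01_14.15 and 2 on TH01_15.14. In these cells Dlx1 ran from 144 to 790 FPKM and Gad1 from 114 to 558. Isl1, a LIM-homeodomain factor, was found in 4 of the 5 and reached 1265 FPKM. Of these Dlx cells, 2 had Th at 275 and 967 FPKM with EGFP transcript at 15.4 and 25.8, and 1 held the peptide gene Sst at 26820 FPKM, which sets the cluster's mean for that gene.

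The other 5 GABAergic cells had Lhx5, from 67 to 198 FPKM, and 4 of them Lhx1. Both are LIM-homeodomain factors. They were not limited to that set, since 1 Dlx cell held Lhx5 at 52.6 FPKM and another Lhx1 at 443, the highest Lhx1 of all 68 cells. Lhx5 also stood at 239 and 174 FPKM in cells with both kinds of transmitter gene, and Lhx1 at 259 in a glutamatergic cell. In the 5 GABAergic cells without a Dlx gene, Gad1 ran from 133 to 1134 FPKM, a range that overlapped that of the Dlx cells. Pnoc, the precursor of the peptide nociceptin, was found in 4 of these 5 cells and in 3 of the 5 Dlx cells. Over all 68 cells it was found in 8 of 13 cells with Gad1 and in 0 of 55 without. Of the 11 listed midbrain GABAergic factors, 7 were found in at least 1 of the 68 cells. Lmo4 was found in 34 cells, Zfpm2 in 9 and Zfpm1 in 6, Gata2, Tal1, Tal2 and Sox14 in 1 each, and Gata3, Helt, Skor1 and Skor2 in none.

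Dlx genes were not limited to GABAergic cells: 12 of the 68 cells had at least 1. In the 7 others the levels were low, with no Dlx gene above 41 FPKM, and 3 of the 7 also held Gad1 or Gad2.

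**Figure D4:**
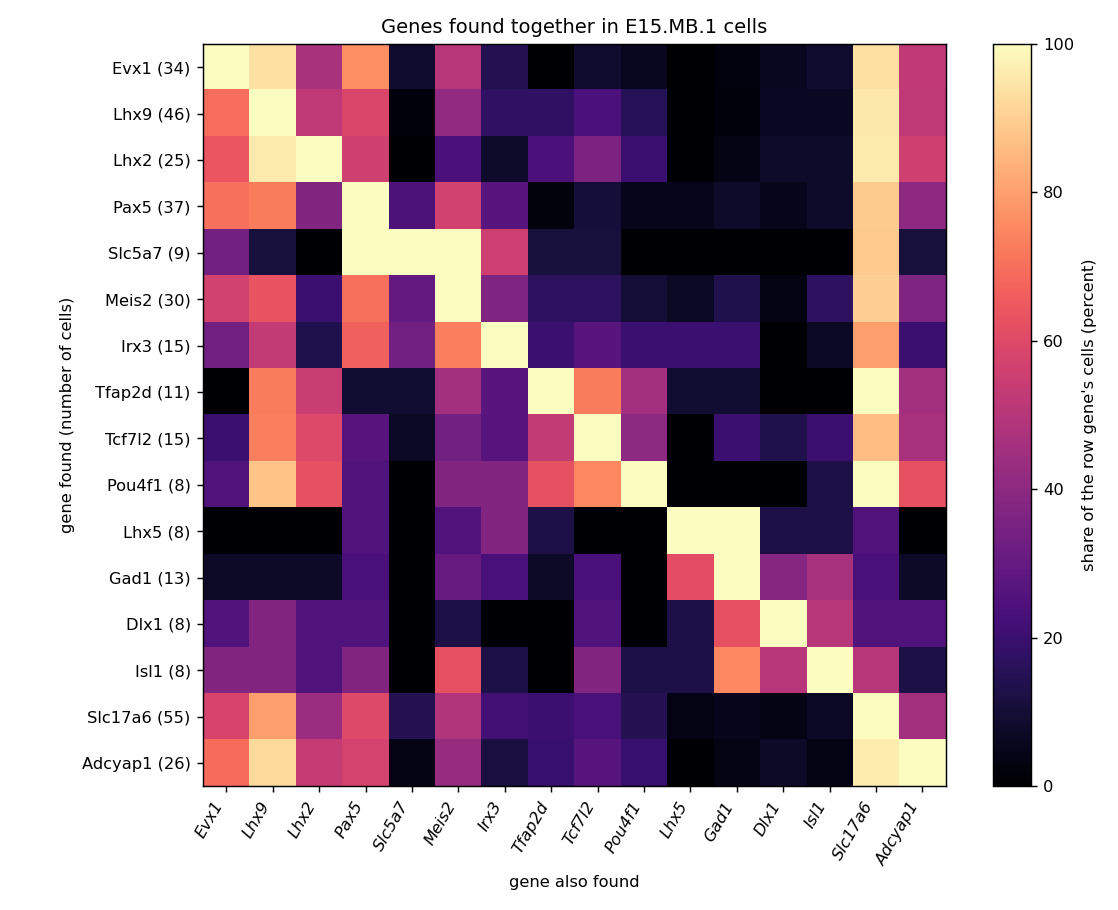
Share of the cells with the row gene (number in brackets) that also had the column gene, in percent, over the 68 E15.MB.1 cells. Lhx9 is found in nearly all Evx1 and Lhx2 cells, Pax5 and Meis2 in all 9 Slc5a7 cells, Gad1 in all 8 Lhx5 cells, and Tcf7l2 in most Tfap2d and Pou4f1 cells.

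Dopaminergic genes were low in most E15.MB.1 cells. Th, the enzyme of the first step of dopamine synthesis, ran from 0 to 967 FPKM with a median of 0 and was found in 13 of 68 cells (19.1%, 10.6 to 30.5%). In E15.MB.2 it was found in 13 of 20 cells, with a median of 1248 and a highest value of 26080. The groups overlapped, because 7 E15.MB.2 cells had no Th and 5 E15.MB.1 cells had 100 FPKM or more. The transcript of EGFP, for which the cells were sorted, was found in 6 of 68 cells at up to 120 FPKM, against 11 of 20 E15.MB.2 cells at up to 13680. Only 3 of the 13 Th cells also had EGFP transcript. In E15.FB.1, Th was found in 18 of 60 cells at up to 2911 FPKM and EGFP transcript in 10 at up to 2324. Both had a median of 0 there.

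Of the 6 factors of dopaminergic identity Lmx1a, Lmx1b, Foxa1, Foxa2, Nr4a2 and Pitx3, none was found in 57 of the 68 cells, 1 in 9 and 2 in 2. Every E15.MB.2 cell had at least 3 of the 6. Foxa1 and Lmx1b were listed at 0 in all 68 cells, Lmx1a was found in 2 at no more than 2.71 FPKM, and Foxa2 in 1 at 318 FPKM. Pitx3, a homeobox factor of dopaminergic neurons, was found in 3 cells at 740, 319.5 and 2.82 FPKM, all with Lhx9 and with Th at 0. Nr4a2, the nuclear receptor Nurr1, was found in 7 cells and reached 2318 FPKM in 1 with Lhx9, Pax5, Evx1 and Slc17a6, where Th was 0. Of the 13 Th cells, 11 had none of the 6 factors. Slc6a3, the dopamine transporter, was found in 3 cells and Slc18a2, the vesicular monoamine transporter, in 25 at up to 141 FPKM.

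Against E15.MB.2, a gene is called when mean FPKM + 1 differs at least 2-fold, and it is tested where the mean reached 1 FPKM in E15.MB.1 or in E15.MB.2. Differences are given as log2 of that ratio. A tested gene listed at 0 in 1 of the clusters compared is always called, so such a call was fixed by the filter. Of 14169 tested genes, 2458 (17.3%) were called higher and 1842 (13%) lower in E15.MB.1, and the median difference was -0.14. Higher calls were 57.2% of all calls. They were 68.7% with means of log2(FPKM + 1), 42.4% with a pseudocount of 10 and 67.1% with each cell rescaled to the same sum, where the median difference was 0.10.

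The genes named here are the 15 highest of 964 found in at least 50% of E15.MB.1 cells at a mean of 20 FPKM or more with the same direction on both plates and in the mean of log2(FPKM + 1). Lhx9 and Pax5 led with log2 differences of 6.59 and 6.49, and Evx1 had no level in E15.MB.2. Next came Syn2, a phosphoprotein of synaptic vesicles, with a mean of 111 ± 169 FPKM against 6.80 ± 21.2 and a log2 difference of 3.85. It was found in 53 of 68 cells against 5 of 20. Pcdh9, a protocadherin of cell adhesion, followed with 164 ± 294 against 12.6 ± 32.6 FPKM (3.61). Spock1, a secreted proteoglycan, was found in 56 cells at a median of 99.2 FPKM, against 5 E15.MB.2 cells (3.10). Ephb1, a receptor for ephrin-B ligands in axon guidance, was likewise found in 56 cells against 5, with medians of 84.3 and 0 (2.83).

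Tle1, a Groucho corepressor (3.23), Id4, an inhibitor of basic helix-loop-helix factors (2.86), and Ebf1, a factor of neuronal differentiation (2.56), were the other transcriptional regulators among the 15. Npnt, the extracellular ligand nephronectin (3.07), Tenm3, a teneurin of synaptic partner matching (2.75), Ptprr, a tyrosine phosphatase (2.68), and Fam19a2, a secreted chemokine-like protein (2.65), were surface, secreted or signalling proteins. Ccdc43 (3.24) completed the list. Syn2, Pcdh9, Spock1, Id4 and Ephb1 were each also found in more than 50% of E15.FB.1 cells. Most of the 15 differed less than 2-fold from E15.FB.1. The log2 differences there were 0.54 for Syn2, 0.51 for Pcdh9, 0.57 for Spock1, 0.31 for Id4 and 0.74 for Ephb1. They were 0.74 for Tle1, 0.25 for Tenm3, 0.66 for Ptprr, 0.80 for Fam19a2 and -0.32 for Ccdc43. Npnt (3.87) and Ebf1 (2.53) were higher against E15.FB.1 too, as were Lhx9, Pax5 and Evx1.

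The 10 lowest of 1766 genes on the same rule, applied to E15.MB.2, held 8 genes of dopaminergic neurons, the reporter and an antisense transcript. EGFP stood lowest, at 3.07 ± 15.2 FPKM against 2488 ± 4128 (-9.26), then Slc6a3 (-8.12), the antisense transcript C130021I20Rik (-7.63), Lmx1a (-7.46) and the nicotinic subunit Chrna6 (-7.19). Th (-6.95), the decarboxylase Ddc (-6.09), Gch1 of the cofactor pathway (-5.90) and Slc18a2 (-5.37) followed, and Foxa1 was listed at 0 in E15.MB.1. Of the 12 listed genes of dopamine handling, 11 were called lower, where 13% of all genes were, and 1 of the 11 was listed at 0 in E15.MB.1. Their median was -5.64 over the 12, against -0.14 for all genes tested. The list was chosen with earlier results of these data known, so its share of calls is a description.

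Among the 56 listed factors of the dorsal midbrain and isthmus, 54 were found in at least 1 cell and 7 in at least 50% of cells. Against E15.MB.2, 34 of 49 tested were called higher and 12 lower, where 17.3% and 13% of all genes were. This list was also chosen with earlier results of these data known, so its share of calls is a description. Of the 34, 20 were listed at 0 in E15.MB.2, so those calls were fixed by the filter, and 14 had a level there. Meis2 had the largest difference among those with a level in both, 366 ± 636 against 0.377 ± 1.69 FPKM (8.06), and Tcf7l2 followed (6.19). Meis2 was found in 30 of 68 E15.MB.1 cells and in only 1 of 20 E15.MB.2 cells, at 7.54 FPKM. With means of log2(FPKM + 1) the Meis2 difference was 3.75. Nr2f2, the orphan receptor COUP-TFII, was also higher (4.47). Among those called lower were the engrailed factor En1 (-3.74), Foxp2 (-1.63), Ebf2 (-1.81), Ebf3 (-1.37) and Otx2 (-1.33). En1 was found in 14 E15.MB.1 cells at no more than 72.2 FPKM, against 18 of 20 E15.MB.2 cells at a median of 30.8. Pax2 and Pax3 were listed at 0 in all 68 cells, and Pax7 and Pax8 were found in 3 each. The median over the 49 members tested was 1.79, and with means of log2(FPKM + 1) the calls were 15 higher and 9 lower with a median of 0.47.

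Genes of immature neurons and of vesicle release were rarely called, against 17.3% higher and 13% lower over all genes tested. Of 17 genes of immature neurons, 16 were found in at least 50% of E15.MB.1 cells and 15 in all 68, among them Dcx, Tubb3 and Stmn2. Only Igfbpl1 was called higher, at 41.6 FPKM in 28 cells against 0.986. Of 19 genes of synaptic vesicle release, all were found in at least 50% of cells, and only Syn2 was called. Of 11 progenitor genes, 9 were found in at least 1 cell, none in 50% of cells, and their summed level reached 993 FPKM in the highest cell. Sox2 and Hes5 were listed at 0, Vim was found in 14 cells and Fabp7 in 9. Of 15 cell cycle genes 8 were found, with Pcna in 54 cells and Tyms in 27, and Mki67, Top2a, Cdk1, Ccnb1, Birc5, Mcm3 and Aurkb were listed at 0. Of the 8 genes tested in each list, 3 progenitor genes were called higher and 3 lower, and 3 cell cycle genes higher and 2 lower. Among the higher, 2 progenitor genes and 1 cell cycle gene were listed at 0 in E15.MB.2. Among the lower, 1 cell cycle gene was listed at 0 in E15.MB.1.

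Adhesion and guidance genes were called in both directions. Of 22 listed cadherins and protocadherins, 8 were called higher and 3 lower. Pcdh19 (2.69), Cdh9 (2.54) and Cdh7 (2.29) were among the higher, and Cdh11 (-1.76) was the lowest. Of 32 guidance receptors tested, of 34 listed, 4 were called higher and 8 lower, where 17.3% and 13% of all genes were, including Epha8 (2.34) among the higher and Ret, the GDNF receptor (-3.86), and Epha5 (-2.59) among the lower. Of 25 guidance ligands tested, of 27 listed, 6 were higher and 5 lower, not far from that background. The semaphorins Sema3c (2.44) and Sema3e (2.25) were higher, and Ntn1, which encodes netrin-1, was lower (-4.72).

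Receptor and channel genes were also called in both directions, against 17.3% higher and 13% lower over all genes tested. Of 16 ionotropic glutamate receptor genes tested, of 18 listed, 3 were called higher and 2 lower, which lies near that background, and Gria2 was found in all 68 cells at a median of 261 FPKM. Of 16 GABA-A and glycine receptor genes tested, of 20 listed, 5 were higher, including Gabra5 (1.36), and 2 lower. Of 8 nicotinic genes tested, of 13 listed, none was called higher and 4 were lower, Chrna6 among them, and rescaling of cells gave 1 higher and 4 lower. Of 23 sodium and calcium channel genes tested, of 25 listed, 2 were higher, Scn2a (1.19) and Cacnb4 (1.09), and 4 lower, including Scn3b (-1.33).

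Of 27 listed neuropeptide and granin genes, 24 were found, with Scg2 in 49 cells and Vgf in 32. Adcyap1 was found in 26 of 68 cells (38.2%) with a highest level of 370 FPKM, and 25 of those had Slc17a6. Cck, cholecystokinin, was found in 11 cells at up to 1607 FPKM, Tac1, the substance P precursor, in 9 at up to 895, and Grp in 9 at up to 513. Ghrh and Crh reached 5946 and 1942 FPKM in 1 cell each and were found in 2. Against E15.MB.2, 5 of the 20 tested were called higher and 7 lower, against 17.3% and 13% over all genes, with Scg2 (-2.71) and Cck (-2.60) among the lower. With means of log2(FPKM + 1) the calls were 1 higher and 3 lower, and Ghrh changed from 4.20 to -0.25.

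The genes that varied most between the E15.MB.1 cells held some of the factors above and others that mark none of the sets. Among 3719 genes found in 20 to 80% of cells at a mean of 20 FPKM or more, Meis2 had the largest SD of log2(FPKM + 1), 4.62. Ebf1 (4.10) and Pax5 (4.06) were among the 20 most variable, with Bnc2 (4.20), a zinc-finger gene, Gfra1 (4.08), the GDNF co-receptor, Lmo3 (4.07), Cdh13 (3.84) and Foxp2 (3.76). Pcp4 (4.23), a calmodulin-binding peptide, was found in 52 cells and ran up to 8319 FPKM. The mitochondrial gene mt-Atp8 (4.53) was found in 14 of 32 cells on TH01_14.15 and in 31 of 36 on TH01_15.14.

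The genes whose level ran most like a marker, among genes found in 20 to 80% of cells, were few and moderate in strength. For Lhx9 these were the splicing factor Rbfox1 (Spearman correlation 0.61 over 68 cells), Lhx2 (0.57), 1500009L16Rik (0.54) and Mab21l2 (0.51). Lhx2 was found in 24 of 46 Lhx9 cells and in 1 of 22 others, and Mab21l2 in 20 against 1. For Pax5 they were led by the long noncoding RNA Mhrt (0.51) and Doc2a, a calcium sensor of vesicle release (0.51). For Evx1 they were Evx1os (0.64), whose reads overlap, then Taf2 (0.49) and Lhx9 (0.49). For Slc17a6 they were Cacna2d1, a calcium channel subunit (0.57), Rbfox1 (0.55) and Nrn1 (0.53). All cells share 1 pool of embryos, and depth per cell is common to both genes of a pair.

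Against E15.FB.1, 1231 of 14371 genes (8.57%) were called higher and 1578 (11.0%) lower in E15.MB.1. Each region was 1 pool, so region and pool cannot be told apart in these differences. Pax5 (6.61), Mab21l2 (6.39), Lhx9 (5.83), Evx1 (5.20), Ebf2 (5.01) and Lhx2 (4.97) were higher, as was Slc17a6 (2.28). Of the 56 dorsal midbrain and isthmus factors, 29 were higher and 10 lower. Meis2, in contrast to its difference from E15.MB.2, stood at 366 FPKM against 522 in E15.FB.1 (-0.51). Gad1 was lower (-2.19), found in 44 of 60 E15.FB.1 cells. Of 17 genes of immature neurons, none was higher and 1 was lower.

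Forebrain factors were called in opposite directions against the other clusters. Of the 16 listed forebrain factors, 11 were found in at least 1 cell. All 15 members tested against E15.FB.1 were called lower, where 11.0% of all genes were, with a median of -3.76. Among the 16 listed, 5 were listed at 0 in E15.MB.1, and a lower call of such a member was fixed by the filter. Dlx1 had a mean of 32.2 FPKM in E15.MB.1 against 362 in E15.FB.1. Against E15.MB.2, 8 of 8 members tested were called higher, where 17.3% of all genes were. Of the 8, 4 were listed at 0 in E15.MB.2, so those calls were fixed by the filter, and the other 4 had a level there. With means of log2(FPKM + 1) none of the 8 was called, where a few cells with high values weigh less than in a mean of FPKM. The forebrain list was likewise chosen with earlier results of these data known, so its shares are a description.

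Most markers of other cell types were found in few cells, while Mbp was found in 33 and Hba-a1 in 15. Of the 7 oligodendrocyte-lineage genes, 5 were found in under 5% of cells. In at least 1 cell, 3 of 5 astrocyte, 4 of 7 oligodendrocyte-lineage, 1 of 5 microglial, 2 of 4 endothelial and 2 of 6 pericyte and fibroblast genes were found. Of those tested against E15.MB.2, 1 astrocyte, 1 oligodendrocyte-lineage, 1 microglial and 2 endothelial genes were called higher, and none of these was called with means of log2(FPKM + 1). All of these but 1 endothelial gene were listed at 0 in E15.MB.2, so those calls were fixed by the filter. The astrocyte genes Aqp4 and Gfap, the oligodendrocyte-lineage genes Sox10 and Pdgfra, the microglial genes C1qa and Cx3cr1, and the endothelial genes Cldn5 and Flt1 were listed at 0 in all 68 cells. Aldoc was found in 9 cells and Mbp in 33, at means of 16.0 and 20.8 FPKM, Pecam1 in 3 and Kdr in 2. Gja1, Aldh1l1, Olig1, Olig2, C1qb and Pdgfrb were found in 1 cell each. Over whole lists, the summed level per cell had a highest value of 259 for 5 astrocyte genes, 278 for 7 oligodendrocyte-lineage genes, 122 for 5 microglial, 85.1 for 4 endothelial and 38.8 for 6 pericyte and fibroblast genes. The haemoglobin gene Hba-a1 was found in 15 cells at a mean of 7.63 FPKM, and the summed level of 4 haemoglobin genes reached 181.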

How the data were processed

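The values used are FPKM per gene and cell, made and deposited by the authors from Smart-Seq2 libraries; HISAT2, Cuffnorm and the build mm10 are named in the submitters' processing notes, and their versions and the annotation are not given in the sources used here. Whether Cuffnorm scaled across cells is not stated, and summed FPKM differed between cells. The 68 E15.MB.1 cells, the 20 E15.MB.2 and the 60 E15.FB.1 cells were taken by the submitters' cluster label among cells that passed their quality control, and 285 columns of other samples were not read. No doublet caller was run, since each well was filled by a sort. Symbols and coordinates came from GENCODE M21 (GRCm38), which gave a symbol to 28636 of 28952 features; for 20508 the identifier version was the same.

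A gene was found at FPKM of 1 or more; differences are of log2(mean FPKM + 1), called at 2-fold or more where either cluster reached a mean of 1 FPKM. Shares have exact 95% intervals. There is no test, because cells of 1 pool are not replicates and the clusters came from these genes. The genes named as highest and lowest needed a mean of 20 FPKM in the higher cluster, a share of 50% of its cells and the same direction on both plates and in the mean of log2(FPKM + 1). The most variable genes were the 20 with the largest SD; genes like a marker were the 5 with the highest Spearman correlation and a mean of at least 10 FPKM. Members of the gene lists could be named as well. Tfap2d, Slc5a7, Gad1 and Meis2 as anchors, the Hox genes beside Evx1 and Evx2, and the sets of cells built on Tfap2d, Slc5a7 and Dlx genes were chosen after their values were seen. The cells and all gene lists were chosen with earlier results of these data known. Alternatives were other pseudocounts, limits of detection and scalings, each plate alone and each gene without its highest cell. Python 3.11.15 with numpy 2.4.6, pandas 2.3.3, SciPy 1.17.1 and matplotlib 3.10.9 was used, and the calculation was tested on simulated data.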

Additional observations from a re-analysis of the deposited data

How the results depend on the processing

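Against E15.MB.2, the 2458 genes called higher became 382 with a pseudocount of 10, 1223 with the mean of log2(FPKM + 1) and 4162 on plate TH01_15.14 alone. The 1842 genes called lower became 518 with a pseudocount of 10, 558 with the mean of log2(FPKM + 1) and, without each gene's highest cell, 700. The glutamatergic share of 72.1% was 59.4% on plate TH01_14.15 and 83.3% on TH01_15.14. The share with both kinds of transmitter gene, 8.82%, was 2.94% at a limit of 5 FPKM, 18.8% on TH01_14.15 and 0 on TH01_15.14. Shares of cells with Lhx9, Pax5, Evx1 and Slc17a6, and the shares with all 3 factors or with none, moved by less than their counting interval under the limits of detection, plates and other settings tried. Leaving out the 12 cells with a Dlx gene, a setting chosen after seeing the data, moved the GABAergic share from 14.7% to 8.93%, inside its interval. Of 23 named genes with a level in both clusters, none changed direction without the highest cell, while their direction on each plate and in the mean of log values was fixed by the rule that chose them. In size, 12 moved by over 1.5-fold on TH01_14.15, 19 on TH01_15.14, 15 in the mean of log values and 9 without the highest cell. No paired analysis was possible, because E15.MB.1 and E15.MB.2 hold cells of 1 midbrain pool and E15.FB.1 those of the forebrain pool. No replicate number pairs the cells. Depth per cell is unknown, so a gene missed in a cell and a gene not expressed there cannot be told apart.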
